A study of Mus musculus with 6 samples.

Results

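Cytosolic ribosomal protein genes were taken from a table of 6 arrays by symbol: Rpl or Rps followed by a digit, plus Rplp0, Rplp1, Rplp2 and Rpsa, without the S6 kinase genes, Rps19bp1 and symbols marked as pseudogenes. The rule found 68 genes of 22180 named genes, 42 of the large and 26 of the small subunit, on 109 probe sets that list a single gene. RNA came from c-Kit+ leukemic cells of the spleen of Chd7f/f, Mx1-Cre, Cbfb+/56M mice (3 samples, called Chd7f/f) and of Mx1-Cre, Cbfb+/56M mice (3 samples, called control), 1 array per sample. Cbfb+/56M stands for a knock-in that, once recombined, makes the Cbfb-MYH11 fusion of inv(16) acute myeloid leukemia, Chd7f/f for a floxed pair of alleles of a chromatin remodeller, and Mx1-Cre for a recombinase that interferon induces in many cell types. Both genotypes carry Mx1-Cre and Cbfb+/56M, and mice of both received pIpC, which induces interferon, and ENU, a chemical mutagen, and were sampled at end-stage leukemia. Age is not given in the labels used here. Samples of a genotype are called independent by the submitters, but whether each is 1 mouse is not stated, so the spread behind every p-value may be partly technical. Values are levels on the log2 scale after RMA, which corrects background, equalises arrays and summarises the probes of a probe set. Differences are Chd7f/f minus control.

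The ribosome reads messenger RNA with its small subunit and joins amino acids in its large subunit. Each protein of these subunits is needed in about the same amount, and most come from a single active gene among many processed pseudogenes, which makes probes for this family hard to place. Their transcripts are known for a pyrimidine tract at the 5′ end, the TOP motif, through which mTOR and Larp1 set how fast they are translated. In human blood formation the loss of a single copy of several of these genes causes Diamond-Blackfan anaemia, a failure of red cell production, so the family is often followed in marrow disease.

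The sequence around annotated starts is shown because of this tract. RefSeq promoters of GRCm38.p6 held 53 of the 68 genes, at 62 starts. A run of at least 5 bases, all C or T and led by C, was searched on the transcribed strand. The start itself fell on a C that opened such a stretch, alone or inside a longer run, in 11 of the 53 genes, 20.8%, against 2.97% of 26972 other genes and 0 of 69 mitochondrial ribosomal protein genes. Next, stretches were counted from any C up to 5 bases from the start, also where the run of C and T opened further upstream. By this count 23 members had a run, 43.4%, against 21.1% of other genes and 24.6% of mitochondrial ribosomal protein genes. Over starts rather than genes, 2.51% of all 32851 fell on such a C and 18.3% had a run nearby. A run was thus found near the start in under 50% of the members. Below, 30 bases around the start are given 5′ to 3′, the start being the first base after the 15th. Capitals mark the longest stretch counted from a C within 5 bases of the start on either side. In Rpl35 the run of C and T opens further upstream than the capitals.
Rps6 (chr4:86857353-86857382, minus strand): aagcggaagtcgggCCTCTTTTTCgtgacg
Rps18 (chr17:33955651-33955680, minus strand): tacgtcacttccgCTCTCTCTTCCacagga
Rps27 (chr3:90213634-90213663, minus strand): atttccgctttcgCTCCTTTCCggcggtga
Rpl15 (chr14:18270972-18271001, minus strand): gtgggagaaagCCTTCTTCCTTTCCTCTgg
Rpl35 (chr2:39005117-39005146, minus strand): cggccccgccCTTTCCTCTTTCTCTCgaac
Rplp2 (chr7:141447636-141447665, plus strand): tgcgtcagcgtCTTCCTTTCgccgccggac
Rps12 (chr10:23787195-23787224, minus strand): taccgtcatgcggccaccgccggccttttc
Rpl11 (chr4:136053379-136053408, minus strand): ctgacccataaggccacggggccggaagtc
Rps12 and Rpl11 are shown as members in which no run begins within 5 bases of the start this table gives. Later bases were not searched, and the window of Rps12 ends in C and T bases. The median genotype difference was -0.009 for 22 tested members with one, 8 of them higher, and 0.001 for 26 without one, 13 of them higher. No test was made of this split.

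The sorted surface receptor Kit stood at 12.48, 11.69 and 11.91 in Chd7f/f and 11.72, 12.12 and 11.68 in control cells. Chd7 itself was at 5.48, 6.50 and 5.91 in Chd7f/f and 6.17, 7.54 and 5.32 in control cells, and the groups overlapped. Where its probes lie in the gene is unknown here, so the deletion stays unchecked by this value. Control replicate 2 had Xist at 10.1 and the Y-linked Eif2s3y at 4.43, while the other 5 arrays had Xist between 3.30 and 3.88, so that array has a female pattern. In sorted bulk cells, fewer cells of a type and less RNA per cell cannot be told apart.

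Ribosomal protein genes differed little between genotypes, and Rpl3 had the one difference above 0.5. A floor of 4.13, set at the 30th percentile over all named genes, left 63 of the 68 genes to be tested among 15526. No member passed (limma, adjusted p = 0.9998 for each), and neither did any of the 15526 genes (0%). At an unadjusted p under 0.05 there was 1 member, Rpl3, or 1.59%, where 1.84% of all tested genes had such a p. There were 28 members higher and 35 lower in Chd7f/f cells, 44.4% higher against 43.7% of all tested genes. Without Chd7f/f replicate 1 the members were 48 higher and 15 lower, 76.2% higher against 49.7% of all tested genes. The median difference was -0.0046 for members and -0.027 for all tested genes. The middle size of a difference, taken without its sign, was 0.046 for members and 0.118 for all tested genes. Differences smaller than 0.1 were found for 43 members, 68.3%, against 43.5% of tested genes. The 95% confidence interval lay wholly inside a fold of 1.5 in either direction for 49 of 63 members, 77.8%, and for 55.1% of tested genes.

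**Figure D1:**
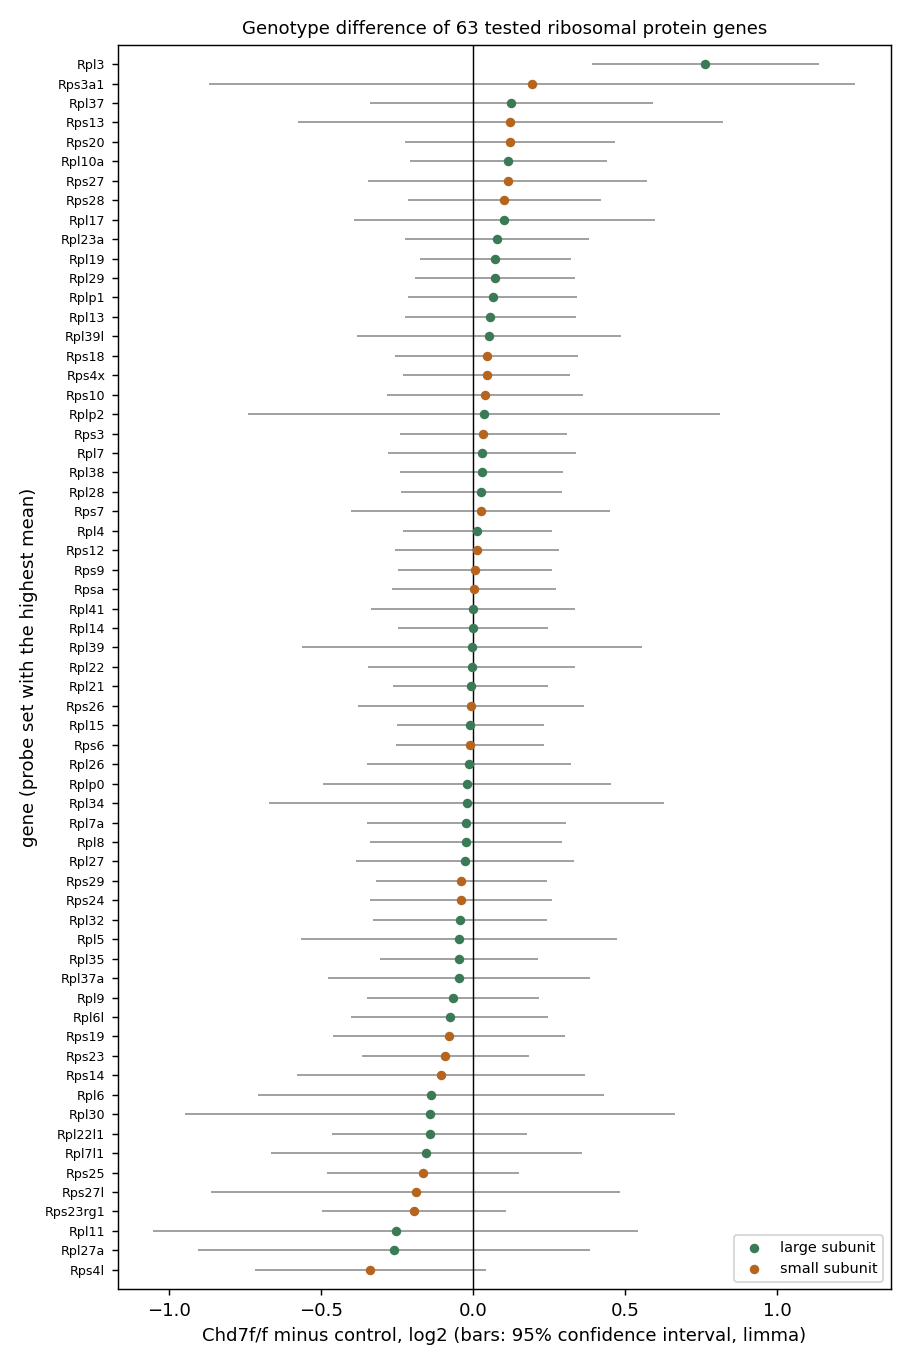
Difference Chd7f/f minus control (log2, horizontal axis) of 63 tested genes, with the 95% confidence interval of the limma fit, coloured by subunit. Rpl3 lies at 0.76 and no other gene lies beyond 0.34 in either direction.

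The 2 subunits had like medians, 0.005 for 24 tested small subunit genes, 13 of them higher, and -0.008 for 39 tested large subunit genes, 15 of them higher. Without Chd7f/f replicate 1 these were 0.047, with 16 higher, and 0.080, with 32 higher. Among the steadiest was Rps6, the small subunit protein that S6 kinases phosphorylate, at 12.76, 12.80 and 12.81 in Chd7f/f and 12.82, 12.82 and 12.77 in control cells. Its difference was -0.010 (95% confidence interval -0.25 to 0.23). Rpl15, a large subunit protein, was at 12.51, 12.57 and 12.56 in Chd7f/f and 12.53, 12.57 and 12.57 in control cells, with a range of 0.059 over all arrays. Both genes thus varied by less than 0.1 between any pair of arrays. The laminin-binding protein gene Rpsa was at 12.26, 12.22 and 12.41 in Chd7f/f and 12.27, 12.35 and 12.26 in control cells. In the acidic stalk, which recruits elongation factors, Rplp0 differed by -0.021 and Rplp1 by 0.065, and Rplp2 by 0.035 with a wide interval of -0.74 to 0.81. Rplp2 was at 4.06, 5.10 and 4.38 in Chd7f/f and 4.84, 4.51 and 4.07 in control cells, an overlap of groups at a level near the filter. Those values are of the single probe set naming Rplp2 alone. One listing it beside Snora52 was at 11.45, 11.35 and 11.41 in Chd7f/f and 11.17, 11.52 and 11.33 in control cells.

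Rpl3, which lies at the peptidyl transferase centre of the large subunit, had the one large value. Its probe set with the highest mean was at 11.50, 11.68 and 11.78 in Chd7f/f and 10.68, 11.10 and 10.89 in control cells. Every Chd7f/f value lay above every control value. The means were 11.65 ± 0.14 in Chd7f/f and 10.89 ± 0.21 in control cells (SD, n = 3 each), a difference of 0.76 (SE 0.15, 95% confidence interval 0.39 to 1.14) or 1.70-fold. The unadjusted limma p was 0.00229, the 10th smallest of 15526, and the adjusted p was 0.9998. By size of difference the gene stood at place 425. The value kept between 0.66 and 0.87 when each array was left out in turn.

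The other probe sets of Rpl3 did not show it. One was at 8.07, 8.65 and 8.40 in Chd7f/f and 9.19, 8.14 and 8.46 in control cells, and the groups overlapped. Its difference was -0.22 (95% confidence interval -0.94 to 0.49, limma adjusted p = 0.9997 in a fit of every probe set). Another was at 3.46, 3.35 and 3.58 in Chd7f/f and 3.87, 3.62 and 3.51 in control cells, a difference of -0.21 (95% confidence interval -0.53 to 0.11). That level lies below the filter. With the mean of the probe sets in place of the highest, Rpl3 was 0.11 higher (limma, unadjusted p = 0.457). The symbol is the same for all, and which probe set reads the spliced Rpl3 messenger is unknown here, so the difference is given for 1 probe set and not for the gene.

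**Figure D2:**
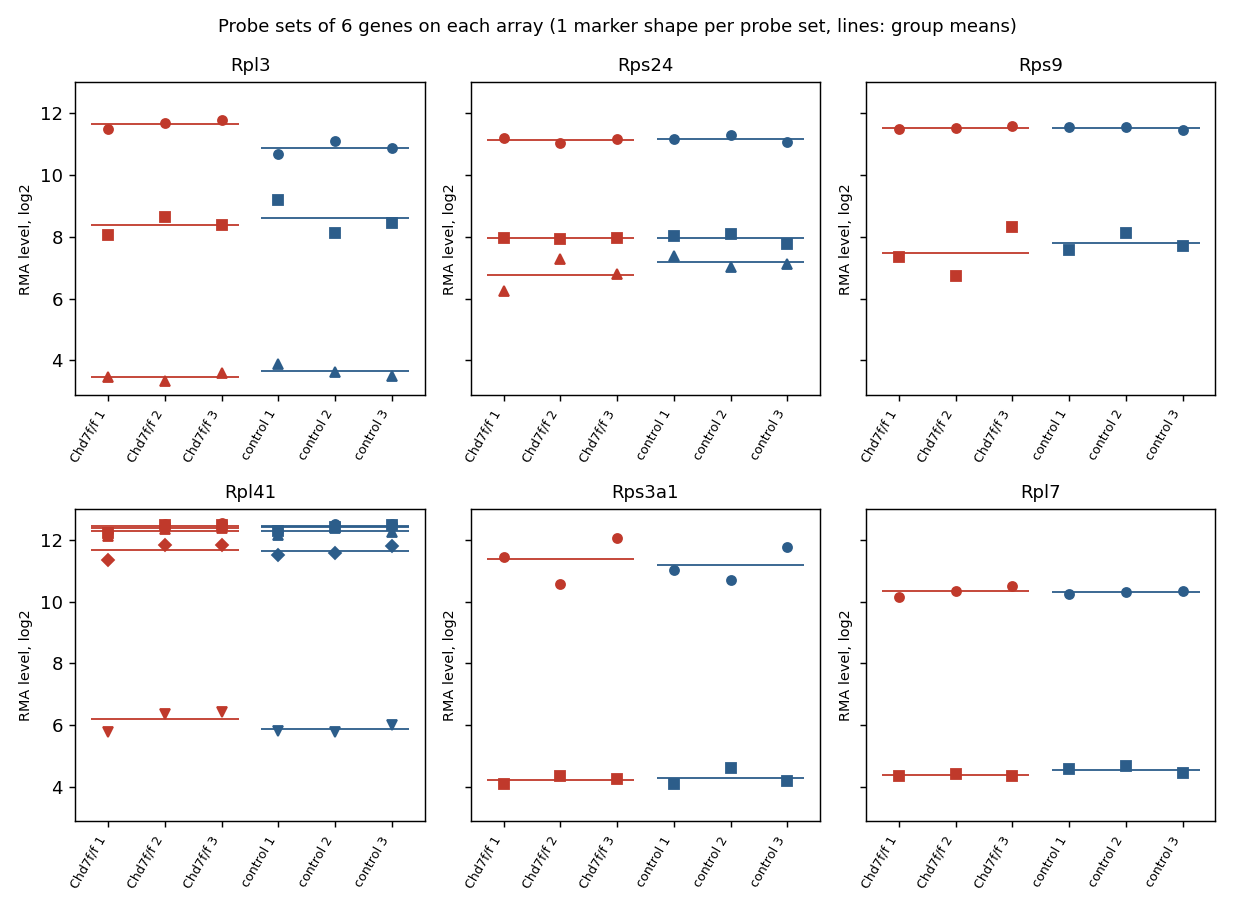
RMA level (log2, vertical axis) of every distinct probe set of the 6 genes whose probe sets differed most in their genotype difference, on each Chd7f/f array (red, left) and control array (blue, right), with group means as lines. The top Rpl3 probe set is higher in Chd7f/f cells, and the lower Rpl3 probe sets are not.

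Of the 68 members 25 had more than 1 probe set, and 24 had probe sets with distinct values. Probe sets of identical values on all arrays were counted once: 6 of Rps12, 2 of Rpl23a and 2 of Rps19. The genotype differences of a gene's probe sets lay apart by 0.143 in the median over these 24 genes, by 0.99 for Rpl3 and by 0.40 for the next gene, and they had opposite signs in 12 genes. Rps24 was that next gene, a Diamond-Blackfan anaemia gene in humans. Its probe sets differed by -0.040, -0.008 and -0.41, and the last was at 6.25, 7.29 and 6.79 in Chd7f/f and 7.40, 7.04 and 7.13 in control cells. In Rps9 a probe set was at 7.36, 6.72 and 8.32 in Chd7f/f and 7.57, 8.14 and 7.69 in control cells, a difference of -0.33, and the other was at 0.008. Rpl41, the smallest protein of the ribosome, had 5 probe sets. The 4 probe sets with levels above 11 differed by -0.014 to 0.052, and the last, at 5.79, 6.35 and 6.43 in Chd7f/f and 5.81, 5.79 and 5.99 in control cells, by 0.32. Probe sets of Rpl19, Rplp1, Rps19 and Rpl27 lay within 0.014 of each other.

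Groups did not overlap for 2 of 63 tested members, 3.17%, while 6.81% of tested genes had no overlap. Rpl3 was one. The other, Rps23rg1, a mouse retrogene derived from Rps23, was at 4.74, 4.73 and 4.80 in Chd7f/f and 5.13, 4.90 and 4.82 in control cells, a difference of -0.19 (95% confidence interval -0.50 to 0.11). Over the 109 probe sets 3 had no overlap, 2.75%, against 7.8% of all probe sets of a single gene. The probe set added by this count was one of Rpl7 at 4.36, 4.41 and 4.36 in Chd7f/f and 4.57, 4.67 and 4.44 in control cells, while the higher Rpl7 probe set differed by 0.030.

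Of the paralogues listed, 7 were measured and 5 tested, with 1 higher and 4 lower in Chd7f/f cells, a median of -0.15 and none past the test. Without Chd7f/f replicate 1 they were 2 higher and 3 lower, with a median of -0.082. Rps4l, a copy of the X-linked Rps4x, had the lowest difference of the family at -0.34 (95% confidence interval -0.72 to 0.041, limma unadjusted p = 0.0721). It was at 4.26, 4.44 and 4.52 in Chd7f/f and 4.83, 4.91 and 4.48 in control cells, and the groups overlapped through control replicate 3. That level lies near the filter, and RefSeq does not list Rps4l as protein coding. Rps4x itself differed by 0.044. Rps27l, a p53 target that resembles Rps27, was at 7.67, 8.39 and 8.60 in Chd7f/f and 8.11, 8.65 and 8.47 in control cells. The low value is that of Chd7f/f replicate 1, and without that array the difference was 0.087, against -0.19 with it. Rpl22l1 differed by -0.14, its partner Rpl22 by -0.005, and Rpl7l1 by -0.15, or 0.048 without Chd7f/f replicate 1. Rpl39l, which is best known from testis, was at 7.03, 6.41 and 6.84 in Chd7f/f and 6.73, 6.73 and 6.67 in control cells. Rpl3l, the muscle form of Rpl3, and Rpl10l, the testis form of Rpl10, were below the filter, at means of 3.92 in Chd7f/f and 4.19 in control cells and of 3.04 in Chd7f/f and 3.19 in control cells. Rpl32l was below it too, at 3.64, 3.20 and 3.15 in Chd7f/f and 3.08, 3.33 and 3.11 in control cells. Rps15 was at 4.02, 3.94 and 4.05 in Chd7f/f and 3.85, 3.68 and 4.21 in control cells. Rps16 was at 3.82, 4.30 and 4.04 in Chd7f/f and 4.04, 4.21 and 4.17 in control cells, also below the floor in its mean. For Rps15 and Rps16 this level is that of the single probe set naming them alone. A probe set shared by Rps16 with a pseudogene was at 11.66, 11.68 and 11.73 in Chd7f/f and 11.58, 11.60 and 11.59 in control cells.

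Members known from human Diamond-Blackfan anaemia gave 14 tested genes, 4 higher and 10 lower, with a median of -0.019 and none past the test. Without Chd7f/f replicate 1 they were 9 higher and 5 lower, with a median of 0.036. Rps19, the gene first tied to that disease, was at 10.81, 10.66 and 11.07 in Chd7f/f and 10.74, 11.05 and 10.99 in control cells, a difference of -0.079. Rpl5 and Rpl11, which with 5S RNA bind and restrain Mdm2, differed by -0.045 and -0.25. Rpl11 was at 5.80, 6.76 and 5.54 in Chd7f/f and 6.51, 6.11 and 6.24 in control cells, so the highest and the lowest array were both Chd7f/f. Its difference was -0.62 without Chd7f/f replicate 2 (limma, unadjusted p = 0.0184) and -0.007 without Chd7f/f replicate 3. Rpl5 was at 0.14 without Chd7f/f replicate 1 and 0.11 without control replicate 1. For Rpl5 and Rpl11 these values are of the single probe set naming each alone. Group means there lay between 6.03 and 6.61. A probe set that Rpl5 shares with a pseudogene had a mean of 8.46 in both genotypes and differed by 0.004. Rpl27a, at 4.71, 5.63 and 5.47 in Chd7f/f and 5.74, 5.33 and 5.52 in control cells, differed by -0.26, and by 0.13 without both arrays numbered 1. Those values are of the single probe set naming Rpl27a alone. A probe set it shares with a predicted gene differed by -0.022, at means of 12.40 in Chd7f/f and 12.43 in control cells. Another, listed with Snora3, differed by -0.20. Rps25, an extra small subunit protein used at internal ribosome entry sites, differed by -0.16. On the higher side, after Rpl3, stood Rps3a1 (0.19), Rpl37 (0.13), Rps13 (0.12), Rps20 (0.12) and Rpl10a (0.12), and every interval of these 5 genes held 0.

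Arrays differed within a genotype by small amounts, and most members were low together on 1 array. The range over 6 arrays was 0.367 in the median over tested members and 0.572 over all tested genes, and it was under 0.25 for 31.7% of members and 8.32% of tested genes. The spread within a genotype was 0.137 for members in the median and 0.218 for all tested genes (pooled SD). Chd7f/f replicate 1 was the lowest array for 32 of 63 members, 50.8%, and for 27.7% of all tested genes. Chd7f/f replicate 3 was the highest array for 23 members, 36.5%, and for 11.6% of tested genes. This second count was 15 after another quantile normalization or median centring, and the first was then 30 and 35. Taken from each member's own mean, the median deviation was -0.105, 0.031 and 0.085 in Chd7f/f samples, against -0.023, 0.049 and -0.021 in control samples. The lowest and the highest array thus share a genotype. Pairwise correlation over the 6 arrays had a mean of 0.228 among members and 0.009 among all tested genes. Its median was 0.30 among members and 0.29 among translation factor genes. Mitochondrial ribosomal protein genes had a higher median of 0.71, and ribosome assembly genes one of 0.85. This correlation is a description across arrays that share normalization and samples.

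**Figure D3:**
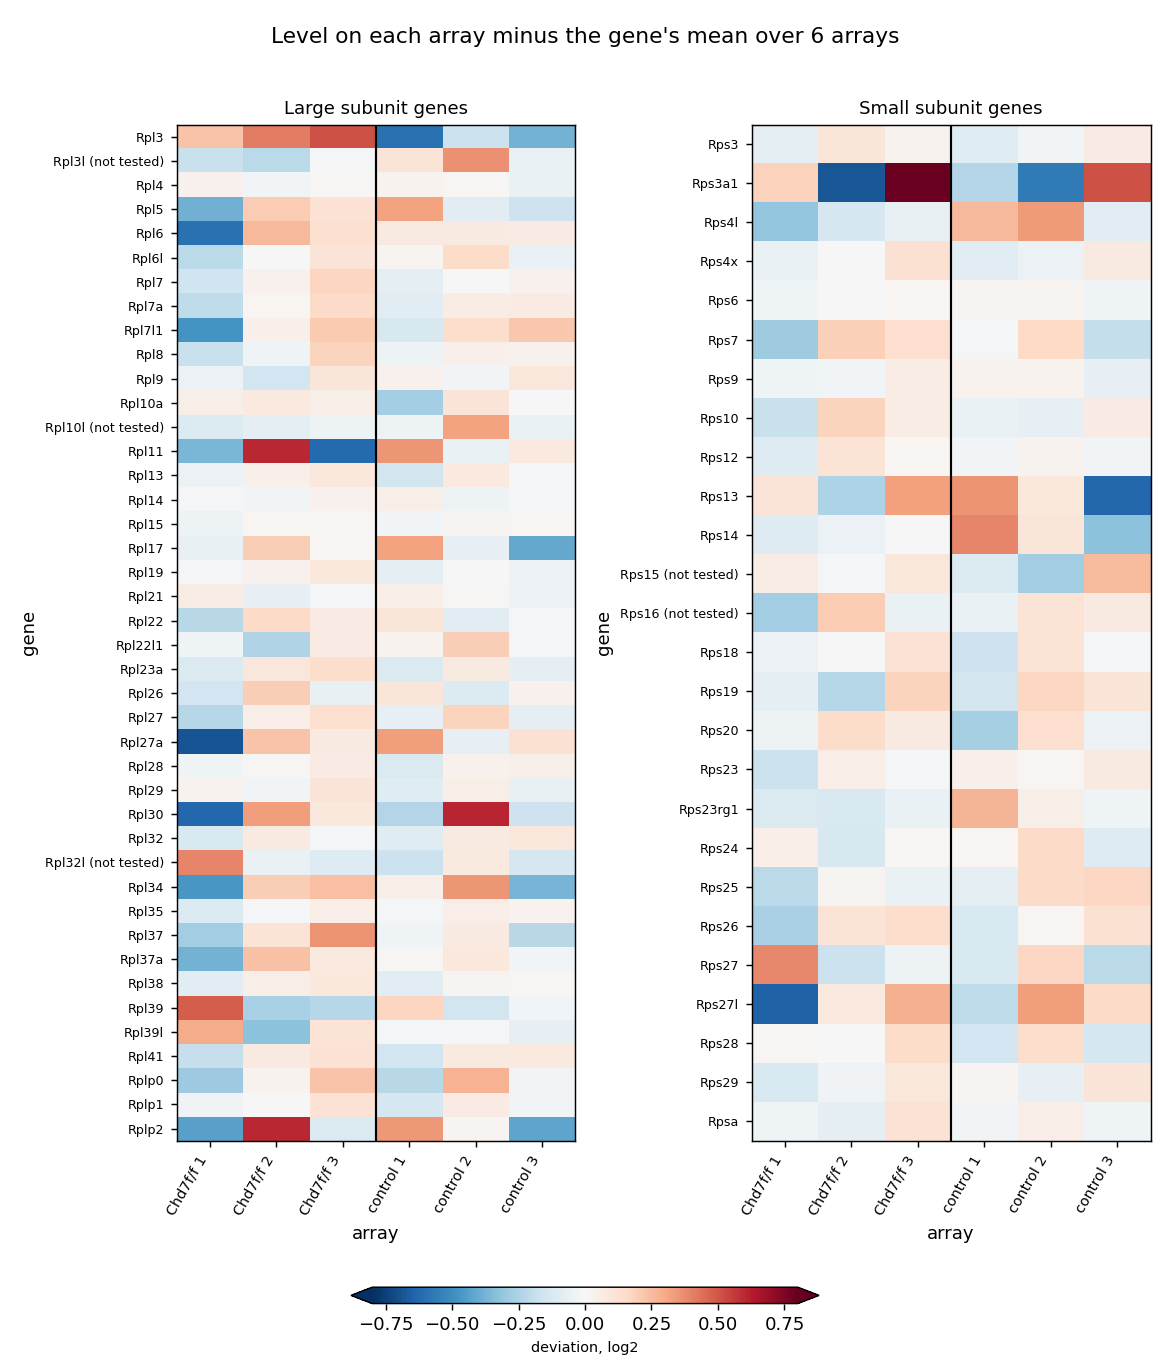
Level of each of 68 genes on each array minus the gene's mean over the 6 arrays (log2, colour, red above and blue below), for large (left) and small (right) subunit genes, with Chd7f/f arrays left of control arrays. The column of Chd7f/f replicate 1 is blue for most genes, with 51 of 63 tested members below their own mean.

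The probe sets that stood for a few members varied far more than the rest. Rps3a1, a small subunit protein of the mRNA exit, had the widest range among probe sets that stood for a gene, at 11.45, 10.58 and 12.05 in Chd7f/f and 11.03, 10.70 and 11.78 in control cells. High and low arrays were found in both genotypes, and its interval ran from -0.87 to 1.26. Its lower probe set, at 4.10, 4.36 and 4.24 in Chd7f/f and 4.08, 4.60 and 4.20 in control cells, did not follow: Chd7f/f replicate 3 was the highest array on the first and not on this one. Rps13 was at 9.43, 9.08 and 9.65 in Chd7f/f and 9.69, 9.41 and 8.70 in control cells, with the low value of each genotype on Chd7f/f replicate 2 and control replicate 3. A probe set that lists Rps13 beside a pseudogene and a predicted gene was at 5.48, 9.52 and 5.23 in Chd7f/f and 5.76, 5.52 and 9.64 in control cells. Those same arrays were the high ones there, by more than 3 log2 units, and the other arrays lay close together. Rpl30 was at 5.43, 6.39 and 6.15 in Chd7f/f and 5.83, 6.67 and 5.89 in control cells. Those values are of the single probe set naming Rpl30 alone. One that lists it beside a predicted gene was at 12.30, 12.27 and 12.22 in Chd7f/f and 12.30, 12.26 and 12.23 in control cells. The ranges of 21 probe sets of the family with a mean of 12 or more went from 0.057 to 0.402, with a median of 0.204, where 75 probe sets of other genes at that level had a median of 0.340. Between 10 and 12 the medians were 0.362 for 20 probe sets of the family and 0.587 for 1036 of other genes. Between 6 and 10 they were 0.608 for 39 and 0.717 for 7995, and under 6 they were 0.511 for 22 and 0.421 for 14243. The family had the smaller median in every class above 6 and the larger one below it. These level classes were chosen after the values were seen.

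**Figure D4:**
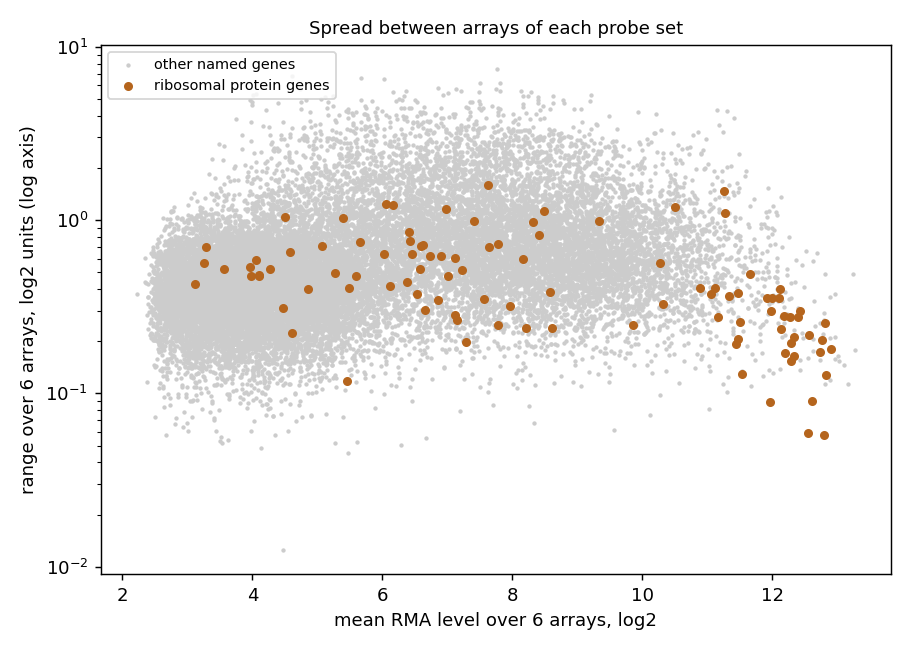
Range over the 6 arrays (log2 units, vertical, log axis) against the mean level (log2, horizontal) of each distinct probe set of ribosomal protein genes (brown) and other named genes (grey). Among probe sets with a mean of 12 or more the family stays at or under 0.402.

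Probe sets that list a member beside other genes were not counted among the 109. There were 57, and 14 protein-coding members, among them Rps2, Rpl10, Rpl13a and Rpl24, were listed only there. The shared probe sets had 35 higher and 22 lower values and a median difference of 0.011, from -0.58 to 0.41. Of all tested genes 43.7% were higher. In 2 of the 57 the groups did not overlap, where 7.8% of all probe sets of a single gene had no overlap. One was the Rps16 probe set named above, and the other, listing Rpl13 and a pseudogene, was at 5.27, 5.40 and 5.24 in Chd7f/f and 5.45, 5.56 and 5.58 in control cells. The lowest difference was that of a probe set for Ccdc84 and Rps25 at 6.06, 6.35 and 6.29 in Chd7f/f and 7.65, 6.29 and 6.49 in control cells, set apart by control replicate 1. Symbols marked as pseudogenes, which the rule leaves out, had 15 distinct probe sets, 11 higher and 4 lower, with a median of 0.061. Of these 15, 3 had no overlap, to be read against the same 7.8%. No test was made of these counts.

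Other lists of the translation machinery had most values lower in Chd7f/f cells. For mitochondrial ribosomal protein, translation factor and ribosome assembly genes 1 array decided that direction. Genes of mTOR, Myc and S6 kinase control stayed mostly lower without it. Of 71 tested mitochondrial ribosomal protein genes 15 were higher and 56 lower in Chd7f/f cells, with a median of -0.102. Of 34 translation factor genes 11 were higher and 23 lower (median -0.057), and of 25 ribosome assembly genes 2 were higher and 23 lower (median -0.22). None of these genes passed the test (limma, adjusted p = 0.9998), and 43.7% of all tested genes were higher. Without Chd7f/f replicate 1 the mitochondrial list had 56 higher and 15 lower (median 0.105), the translation factors 23 higher and 11 lower (median 0.029) and the assembly genes 14 higher and 11 lower (median 0.047). Fau, which encodes the small subunit protein Rps30 and carries another symbol, was at 11.90, 11.64 and 11.93 in Chd7f/f and 11.60, 11.90 and 11.72 in control cells. The elongation factor genes Eef1a1 and Eef1b2 differed by 0.013 and -0.010. Eif3m, a subunit of the eIF3 scaffold, differed by -0.375, and by -0.079 without Chd7f/f replicate 2. The assembly factors Rrs1 and Nop58 differed by -0.49 and -0.44, and by -0.26 and -0.13 without Chd7f/f replicate 1. Larp1, the binder of TOP transcripts, was at 9.71, 10.07 and 9.98 in Chd7f/f and 10.33, 10.01 and 10.10 in control cells. Of the 6 tested genes of mTOR, Myc and S6 kinase control all had lower values, with a median of -0.18. Without Chd7f/f replicate 1 they were 2 higher and 4 lower, with a median of -0.049, and Myc was at 0.21, against -0.19 with it.

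**Figure D5:**
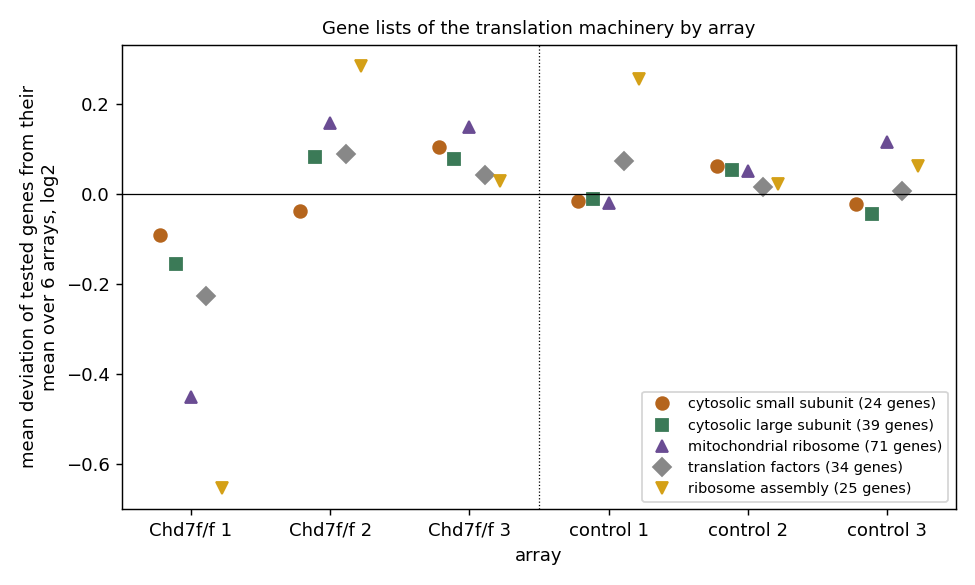
Mean deviation of the tested genes of 5 lists from their own mean over the 6 arrays (log2, vertical), for each array (horizontal, Chd7f/f left). On Chd7f/f replicate 1 all 5 lists lie below 0, from -0.090 for small subunit genes to -0.65 for ribosome assembly genes.

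On Chd7f/f replicate 1 the lists lay at -0.090 for the small subunit, -0.157 for the large subunit, -0.23 for translation factors, -0.45 for the mitochondrial ribosome and -0.65 for assembly. Without that array the median difference of members was 0.077, against -0.0046 with it. Estimated array weights ran from 0.418 for Chd7f/f replicate 1 to 2.585 for Chd7f/f replicate 3. Cell type markers moved with the arrays as well. The mean level of 6 measured erythroid markers was 9.38, 10.07 and 10.39 on Chd7f/f arrays and 10.85, 9.69 and 9.99 on control arrays, so it was lowest on Chd7f/f replicate 1. The mean of 6 leukemic progenitor markers, Kit among them, was 9.99, 8.81 and 9.27 on Chd7f/f and 9.35, 9.16 and 8.67 on control arrays. It was highest on Chd7f/f replicate 1, where Cd34 was at 9.47, against 5.61 to 7.64 elsewhere. Kit and Mpo were also highest on that array, while Myb, Runx1 and Elane were not. For 6 monocyte and macrophage markers it was 6.69, 5.93 and 7.02 on Chd7f/f and 6.06, 6.38 and 5.58 on control arrays. For 6 neutrophil markers it was 4.35, 4.21 and 5.33 on Chd7f/f and 4.13, 4.64 and 4.45 on control arrays, and 2 of them, S100a8 and Camp, were below the filter. Means of megakaryocyte markers, 3 in all, ranged from 6.49 to 7.11 on Chd7f/f and 7.04 to 7.93 on control arrays. Gp9 alone was at 10.8 on control replicate 1 and from 6.41 to 7.71 elsewhere. Means of stromal and endothelial markers, 5 in all, ranged from 5.04 to 5.51 on Chd7f/f and 5.04 to 5.93 on control arrays. Pdgfrb alone was at 8.99 on control replicate 1, 7.67 on Chd7f/f replicate 1 and from 5.24 to 5.64 elsewhere. Means of B, T and NK cell markers ranged from 4.05 to 4.47 on Chd7f/f and 4.13 to 4.89 on control arrays, near the filter. The B cell marker Cd79a alone was at 7.18 on control replicate 2 and from 4.97 to 5.26 elsewhere. The part of all these markers in the lower levels of Chd7f/f replicate 1 was not tested.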

How the data were processed

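The authors deposited 1 log2 value per probe set and array; Affymetrix Expression Console and RMA are named per the submitters' processing notes, with versions and settings not given in the sources used here. The table holds 41345 probe sets, and values run from 1.78 to 13.5. The platform's annotation listed 1 symbol for 23521, several for 1814 and none for 16010; symbols were updated through Entrez identifiers in RefSeq (GRCm38.p6), which held 21994 of 22180 genes. The probe set with the highest mean stood for a gene. For the genotype comparison limma 3.58.1 (R 4.3.3; lmFit and eBayes with a constant prior, two-sided) was run, with Benjamini-Hochberg adjustment over 15526 genes above the 30th percentile of mean level. With 3 arrays a genotype, 0.1 is the smallest p of an exact permutation test. The number of arrays limits precision.

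Tested on simulated data of this comparison (15526 genes, 200 changed), limma recovered 36.7% of changes of 1 log2 unit and 76.1% of 2. False calls came to 28 over 5 sets. Among the unchanged genes there, 4.88% had an unadjusted limma p under 0.05, against 1.84% of all tested genes on the arrays. Whether these recovery rates hold for the arrays, or for members alone, was not tested. Named members were all with several probe sets, no overlap, the extreme differences or ranges per subunit, paralogues and untested genes; others named in the text were chosen after their values were seen. The members and lists were chosen with earlier results of these data known. Replicate numbers were not used to pair the samples in the main fit. Same-numbered deviations correlated at 0.027, -0.025 and 0.034, and differently numbered ones at -0.099 to 0.089. Such values cannot settle whether samples of a number belong together. No outlier test was applied to groups of 3; array weights were estimated as an alternative. Plots used matplotlib 3.10.9.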

Additional observations from a re-analysis of the deposited data

How the results depend on the processing

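Over 16 alternatives (a second quantile normalization, median centring, filtering at percentile 50 or not at all, averaging or listing all probe sets, a trended robust prior, array weights, a replicate block, leaving out each array or both numbered 1) no member passed an adjusted p of 0.05. The count at an unadjusted p under 0.05, 1 as reported, was 0 with the mean of probe sets, 2 with the trended robust prior, and 1 to 2 with an array left out (2 without control replicate 3 or Chd7f/f replicate 2). The median difference ran from -0.036 to 0.077, both with an array left out, and turned above 0 under 5 alternatives; the replicate block left it at -0.0046 and the count at 1. The count of members highest on Chd7f/f replicate 3 was 15 with quantile normalization and 15 with median centring, a count and alternatives added after seeing the data; the cause was not tested. Of 610 values of single genes 606 moved by less than the spread within a genotype. This count was largely fixed by the settings and is no measure of stability. Leaving out 1 of 3 arrays cannot move a difference by more than that spread. Filters, the listing of all probe sets, the prior and the block leave the difference unchanged. The 4 others moved more. With the mean of probe sets Rpl3 was at 0.11, Rps24 at -0.15 and Rps9 at -0.16. Rpl27a was at 0.13 without both arrays numbered 1. Rps3a1 was 0.58 higher without Chd7f/f replicate 2 and at -0.15 without Chd7f/f replicate 3. Leaving out arrays was also done for the lists, chosen after seeing the data. No detection calls were used, so how far levels near the filter of 4.13 lie above background is unknown here.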
